A study of Mus musculus with 4 samples.

Results

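The genes described here are 47 genes of mitosis and chromosome segregation, chosen by name: every non-control probe whose gene name in the scanner files is one of the 47 was taken, without regard to its values. All 47 were on the array, with 66 probes in all, and every one of these probes passed the filter on dim spots in both channels. They make up 47 of the 19365 genes tested. Whole ureters were taken from NMRI mouse embryos at E14.5 (embryonic day), and on each of 4 two-colour Agilent arrays a mutant extract was hybridised against a control extract. The mutants, called cDKO (conditional double knockout), were Fgfr1(fl/fl) and Fgfr2(fl/fl) and carried Tbx18(cre/+), and the controls were Fgfr1(fl/?) and Fgfr2(fl/?), with no cre allele in the labels. Both groups therefore carried floxed alleles of the fibroblast growth factor receptor genes Fgfr1 and Fgfr2, and in the mutants cre was expressed from the locus of Tbx18, which encodes a transcription factor of the mesenchyme around the ureter. The sex label was female for the mutant and control extracts of replicates 1 and 4 and male for those of replicates 2 and 3.

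Nothing in the labels says whether an extract came from a single embryo or a pool. The p-values here reflect only how the 4 extract pairs vary, with each gene's variance drawn toward that shared across all genes. Slide 1 (scan 1) held replicates 1 and 2, slide 2 (scan 2) held replicates 3 and 4, and the slides were read on different scanners. The cDKO RNA was labelled with Cy5 on replicates 1 and 3 and with Cy3 on replicates 2 and 4. No spot was saturated, and between 66.1% and 71.8% of spots were well above background in the cDKO channels, against 64.9% to 72.6% in the control channels. Each value compares equal inputs of RNA (150 ng) from whole ureters, scaled within each array, so it is a relative amount. A smaller share of dividing cells and less of a transcript in each dividing cell therefore cannot be told apart.

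Cells enter mitosis when cyclin B binds the kinase CDK1 and the CDC25 phosphatases activate the pair, with Polo-like and Aurora kinases acting beside them. Condensin folds the chromosomes, kinetochores built on centromeric chromatin capture spindle microtubules, and the spindle checkpoint holds back the anaphase promoting complex until every kinetochore is attached. Separase then opens cohesin, and the central spindle guides cytokinesis. Most of these genes are transcribed late in the cell cycle, so their transcripts are widely read as a measure of how many cells of a tissue are dividing.

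That shared timing has a known promoter signature. The cell cycle homology region (CHR), TTTGAA, is bound by the MuvB complex, first with repressors and later with B-MYB and FOXM1, and the CCAAT box is bound by NF-Y. Promoters of 38 of the 47 genes were matched by symbol in the RefSeq table (build GRCm38.p6), as windows of 250 bases before to 50 bases after the start. TTTGAA occurred on either strand in 26 of the 38 genes (68.4%), against 20.2% of all 27025 genes with windows of the same length. CCAAT occurred on either strand in 28 of 38 (73.7%), against 41.1% of all genes, and both motifs occurred together in 23 of 38 (60.5%), against 7.97%. The E2F letters TTTGGCGC, TTTCGCGC or TTTCCCGC, on either strand, occurred in 2 of 38 (5.26%), against 2.12%. Matches of different motifs can share an end base, and each was counted. The stretches below have TTTGAA and CCAAT on either strand in capitals. These stretches are the 100 bases before the start of Cdc20 (anaphase activator), Cdk1 (kinase), Espl1 (separase) and Prc1 (spindle midzone). They lie at chr4:118437344-118437443 (minus strand), chr10:69352913-69353012 (minus strand), chr15:102296193-102296292 (plus strand) and chr7:80294376-80294475 (plus strand) of GRCm38.p6.
Cdc20: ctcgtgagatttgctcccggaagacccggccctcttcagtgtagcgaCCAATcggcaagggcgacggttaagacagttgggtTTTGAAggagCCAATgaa
Cdk1: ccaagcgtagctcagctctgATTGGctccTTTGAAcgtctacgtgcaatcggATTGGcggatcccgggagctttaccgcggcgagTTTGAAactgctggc
Espl1: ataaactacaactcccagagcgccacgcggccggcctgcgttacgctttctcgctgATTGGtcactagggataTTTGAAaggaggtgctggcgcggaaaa
Prc1: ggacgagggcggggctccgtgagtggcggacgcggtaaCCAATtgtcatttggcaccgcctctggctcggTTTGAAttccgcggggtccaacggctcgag
These 4 genes were picked for a forward TTTGAA in the last 60 of the 100 bases and a CCAAT match among the 100. The closeness of TTTGAA to the start was thus set by the choice. There is 1 TTTGAA in Cdc20, Espl1 and Prc1 and 2 in Cdk1. In other genes TTTGAA lay elsewhere. Counted from the start, its first base on the forward strand was at 29 in Anln and at -116 and -98 in Mki67. A match is a description of letters, not a bound site. The fitted cDKO over control ratios of the 26 genes with TTTGAA had a median log2 of 0.02 and spanned -0.40 to 0.31, and those of the 12 genes without it spanned -0.25 to 0.24.

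In cDKO ureters the mitosis genes as a set sat where all genes sat. Their median fitted log2 ratio of cDKO over control was 0.02, against 0.01 over all genes tested, and 24 of the 47 lay above 0 (51.1%, against 52.7% of all genes). The ratios spanned -0.40 (Ttk, a checkpoint kinase) to 0.34 (Aurkb, the kinase of the chromosomal passenger complex), with an SD over genes of 0.17, against 0.20 over all genes. None of the 47 was called in limma at an adjusted p under 0.05 (0 called, lowest adjusted p = 0.0853, Aurkb), where 0.852% of all genes were called, 0.553% as higher and 0.3% as lower. At an unadjusted limma p under 0.05 there were 12 of 47 (25.5%), against 19.6% of all genes. Of those 12, 9 were higher in cDKO ureters (19.1% of the 47, against 11.7% of all genes) and 3 were lower (6.38%, against 7.88%). That split stayed at 9 and 3 with no background correction (25.5% of the 47, against 19.4% of all genes). It was 8 and 3 with a correction for probe G+C (23.4%, against 18%). It depended on the scaling and the arrays used: with median centring in place of loess, 0 were higher and 1 was lower (2.13% of the 47, against 6.65% of all genes). Without replicate 1 there were 1 and 1 (4.26%, against 8.48%). Leaving out replicate 2 gave 5 and 1 (12.8%, against 15.4%), replicate 3 gave 6 and 1 (14.9%, against 17.1%) and replicate 4 gave 10 and 6 (34%, against 23.3%). Within slide 1 there were 6 higher and 7 lower (27.7%, against 20.1% of all genes).

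By the brightest probe of each gene in the fit reported, the size of change that the arrays left possible was small for these genes. The standard error of a ratio had a median of 0.0839 on the log2 scale, against 0.0824 over all genes. The 95% interval of the ratio lay within 1.5-fold either way for 46 of the 47 genes (97.9%, against 91.9% of all genes), and the exception was Ttk, whose interval ran from -0.63 to -0.16 on the log2 scale. For 22 genes (46.8%, against 53.4% of all genes) it lay within 1.25-fold either way. These intervals rest on 4 arrays and on the variance shared across all genes. They do not cover other probes or other processing. The other probes of Nuf2 had log2 ratios of -0.63 ± 0.17 and -0.35 ± 0.17, and the Aurkb ratio reached 0.56 with the scanner software's log ratio.

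The direction was the same on every array for 17 of the 47 genes (36.2%, against 25.2% of all genes). Of the 47 genes, 12 lay above 0 on all 4 arrays (25.5%, against 13.4% of all genes), 5 below 0 on all 4 (10.6%, against 11.8%), and 30 were on both sides. The 47 genes had brighter probes than all genes (median log2 intensity 13.3, against 11), and these shares were not matched for intensity. The per-array medians of the 47 genes were -0.04, -0.10, 0.08 and 0.05 on replicates 1 to 4. Both arrays of slide 1 thus had a median below 0 and both arrays of slide 2 a median above 0. The median was -0.06 within slide 1 and 0.07 within slide 2.

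**Figure D1:**
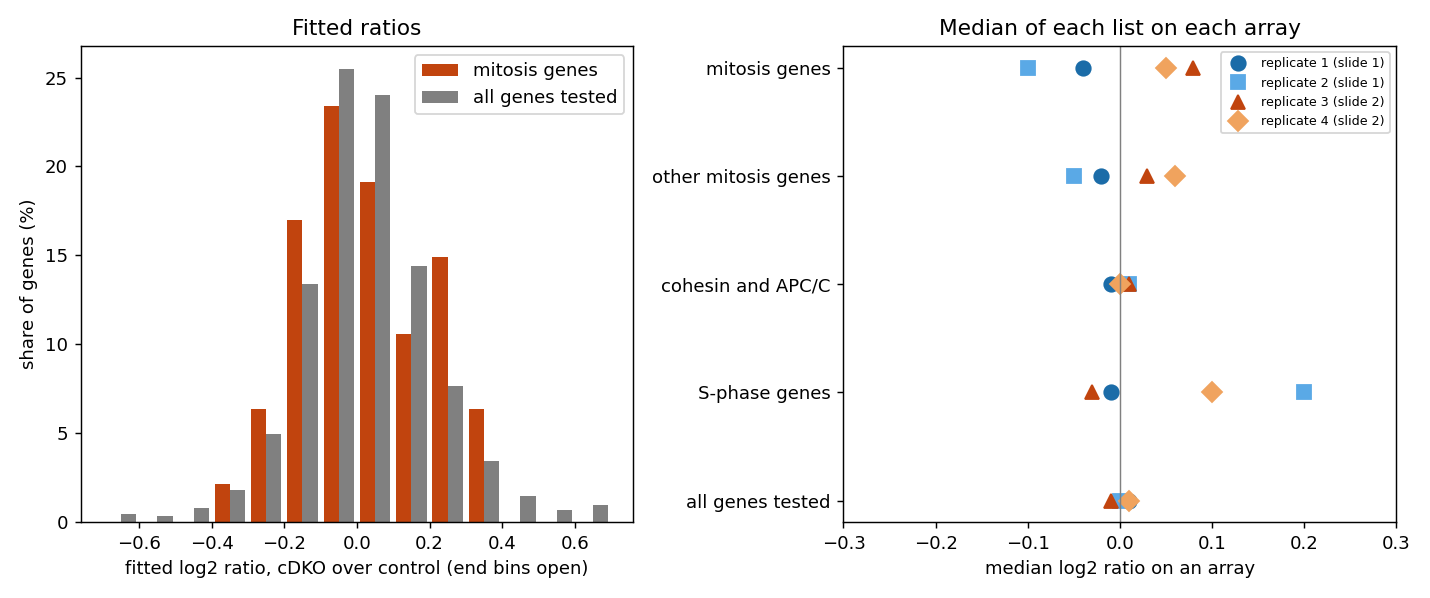
Left, share of genes (%) in each 0.1-wide bin of the fitted log2 ratio of cDKO over control, for the 47 mitosis genes and all 19365 genes tested; the end bins are open. Right, median log2 ratio of each gene list on each of the 4 arrays; the mitosis genes sit at -0.04 and -0.10 on slide 1 and at 0.08 and 0.05 on slide 2.

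The chromosomal passenger complex, which sits at the inner centromere and destabilises wrong attachments of microtubules, had the highest median of the 7 roles. Its 4 genes had fitted log2 ratios from 0.06 to 0.34 with a median of 0.30, and 3 of them lay above 0 on all 4 arrays. The direction of Birc5 turned with median centring in place of loess (-0.05) and with the mean of its probes (-0.06). Aurkb, the catalytic subunit, had log2 ratios of 0.36, 0.36, 0.35 and 0.30 on replicates 1 to 4. The log2 channel levels of Aurkb were 7.82, 7.69, 7.69 and 7.58 in cDKO ureters, against 7.46, 7.33, 7.34 and 7.28 in control ureters. All 4 cDKO levels of Aurkb were above all 4 control levels. The fitted ratio of Aurkb was 0.34 ± 0.07 (SE, n = 4 arrays), with an limma adjusted p of 0.0853. Only 2 of the 47 genes had levels separated in this way, Aurkb and Cdc25b (4.26%, against 4.71% of all genes), and none had all 4 cDKO levels below all 4 control levels (against 3.33%).

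The other subunits were less even. Incenp, the scaffold that activates the kinase, had log2 ratios of 0.46, 0.43, 0.10 and 0.18 on replicates 1 to 4, which gave 0.29 ± 0.09 (SE, n = 4 arrays, limma adjusted p = 0.173). Cdca8, which encodes the targeting subunit borealin, had log2 ratios of 0.31, 0.65, 0.10 and 0.18 and a fitted ratio of 0.31 ± 0.10 (limma adjusted p = 0.174). Both genes were higher in cDKO ureters on all 4 arrays and by more on slide 1. Their levels overlapped between the groups, since the control levels of slide 2 reached those of the cDKO channels of slide 1. Birc5, which encodes survivin, the subunit that reads the centromere, had log2 ratios of -0.03, 0.13, -0.04 and 0.18 by its brightest probe. Its fitted ratio was 0.06 ± 0.07, with an limma adjusted p of 0.708. The other Birc5 probes lay below 0, at -0.13 ± 0.08 and -0.10 ± 0.08. The median of the 4 genes was 0.40 on slide 1 and 0.14 on slide 2.

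**Figure D2:**
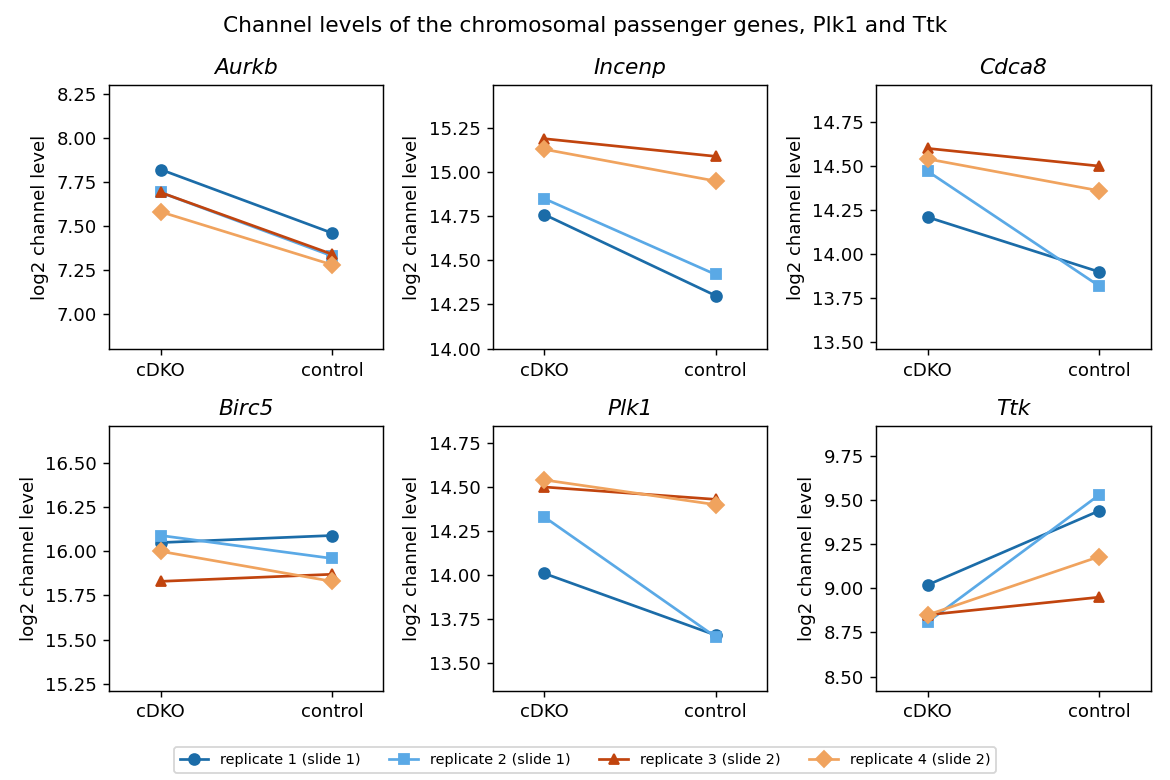
Log2 channel level after quantile scaling in cDKO ureters and in control ureters, 1 line per array, for the 4 chromosomal passenger genes, Plk1 and Ttk; panels have the same height in log2 units but different starts. For Aurkb the 4 cDKO levels (7.58 to 7.82) are all above the 4 control levels (7.28 to 7.46), and for the other 5 genes the groups overlap.

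The Aurkb value rests on a single probe, at chr11:68865105-68865164 of mm9 on the plus strand, in which 12 of 60 bases are G or C (20%). It was a dim probe, with mean log2 levels of 7.70 in cDKO channels and 7.35 in control channels. The median log2 intensity of the 47 genes was 13.3. The first 30 bases of this probe and of the Ttk probe (chr9:83758726-83761669 of mm9, plus strand), whose G+C content is 40%, are shown with G and C in capitals.
Aurkb: ttCaGaaaaattatGaaGaaCaaCatttta
Ttk: CatGtCttCttCaaGaGaaaattCGaaaat
With the ratios of each array corrected for probe G+C, a step added after seeing the data, the Aurkb ratio was 0.15 and its adjusted limma p 0.333, and the Ttk ratio was -0.41. With the scanner software's own log ratio the Aurkb ratio was 0.56 (limma adjusted p = 0.048), and with the authors' deposited table it was 0.56 (limma adjusted p = 0.0496). In both of these Aurkb was the only 1 of the 47 genes called (2.13%, against 1.11% of all genes in each).

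Among the 11 genes of mitotic entry the median log2 ratio was 0.05, and 7 lay above 0. Plk1, the kinase that drives entry, centrosome maturation and spindle assembly, had log2 ratios of 0.35, 0.68, 0.07 and 0.14 on replicates 1 to 4. Its log2 levels were 14.01 to 14.54 in cDKO ureters, against 13.65 to 14.43 in control ureters. Plk1 was higher in the cDKO channel of every array, with the gap on slide 1 wider than that on slide 2, and the groups overlapped. Its fitted ratio was 0.31 ± 0.11 (SE, n = 4 arrays), with an limma adjusted p of 0.205. Foxm1, the transcription factor that switches on much of this programme, had log2 ratios of 0.33, 0.48, 0.17 and 0.11 and a fitted ratio of 0.27 ± 0.09 (limma adjusted p = 0.178). Cdc25b, a phosphatase that activates CDK1 at the centrosome, had 0.33, 0.24, 0.17 and 0.22, with a fitted ratio of 0.24 ± 0.07 (limma adjusted p = 0.167). Foxm1 and Cdc25b were above 0 on every array, and Cdc25b kept its 4 cDKO levels (12.73 to 12.87) above its 4 control levels (12.39 to 12.71).

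The brightest probes of the cyclins and their kinase lay near 0. Ccna2, the cyclin of S phase and early mitosis, had a fitted log2 ratio of -0.06 ± 0.07, Ccnb1 one of -0.03 ± 0.10 (its other probes had -0.24 ± 0.09 and -0.17 ± 0.08) and Ccnb2 one of 0.02 ± 0.07. Cdk1 had log2 ratios of -0.08, -0.19, 0.55 and -0.08 on replicates 1 to 4. It was below 0 on 3 arrays and high on replicate 3 alone, and its fitted ratio was 0.05 ± 0.11. Aurka, the kinase of the spindle poles, had a fitted ratio of 0.16 ± 0.09 that was led by 0.49 on replicate 2. Nek2, which separates centrosomes, had 0.07 ± 0.07, and the phosphatase gene Cdc25c had -0.11 ± 0.11, with -0.30 and -0.36 on slide 1 and 0.15 and 0.08 on slide 2. Plk4, which licenses centriole duplication, was the lowest of this role, with log2 ratios of -0.08, -0.47, -0.16 and -0.27, a fitted ratio of -0.25 ± 0.08 and an limma adjusted p of 0.168.

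In the 9 genes of the checkpoint, the anaphase promoting complex activators and separase, the median log2 ratio was -0.01, with 4 above 0. Ttk (also called Mps1), the kinase that starts checkpoint signalling at unattached kinetochores, had log2 ratios of -0.42, -0.72, -0.10 and -0.33 on replicates 1 to 4. Its log2 levels were 9.02, 8.81, 8.85 and 8.85 in cDKO ureters, against 9.44, 9.53, 8.95 and 9.18 in control ureters. The cDKO level of Ttk was lower on each array, and the cDKO level of replicate 1 was above the control level of replicate 3, so the groups overlapped. The fitted ratio was -0.40 ± 0.10 (SE, n = 4 arrays), with an limma adjusted p of 0.116. Bub1, which recruits checkpoint proteins to kinetochores, had a fitted log2 ratio of 0.02 ± 0.07, its partner Bub3 one of -0.01 ± 0.08, and Mad2l1, the inhibitor of the anaphase activator, one of -0.03 ± 0.08. Bub1b, which encodes the checkpoint protein BubR1, had -0.14 ± 0.09.

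Cdc20, the activator of the anaphase promoting complex and the target of the checkpoint, had log2 ratios of 0.23, 0.60, 0.08 and 0.07. It was above 0 on every array and led by replicate 2, with a fitted ratio of 0.25 ± 0.10 (SE, n = 4 arrays, limma adjusted p = 0.261). Espl1, which encodes separase, had 0.16, 0.03, 0.13 and 0.21, with a fitted ratio of 0.13 ± 0.08. Pttg1, which encodes securin, the inhibitor of separase, had -0.35, -0.31, 0.31 and -0.01, with a fitted ratio of -0.09 ± 0.12, the widest error of the 47. Cdca3, which promotes the destruction of a mitotic inhibitor, had a fitted ratio of 0.03 ± 0.09 with a single high value of 0.35 on replicate 3.

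Of the 7 centromere and kinetochore genes, 2 lay above 0, and the median log2 ratio was -0.02. The 4 subunits of the NDC80 complex, which holds microtubule ends at the kinetochore, did not lie on the same side of 0. Ndc80 had log2 ratios of -0.38, -0.44, -0.12 and 0.07 (fitted -0.22 ± 0.11), Nuf2 had -0.06, -0.49, 0.06 and -0.19 (fitted -0.17 ± 0.08), and Spc24 had -0.31, -0.18, -0.07 and -0.05 (fitted -0.15 ± 0.08). Spc25 had 0.17, 0.28, 0.11 and 0.32, a fitted ratio of 0.22 ± 0.07 and an limma adjusted p of 0.173. Spc25 was thus above 0 on all 4 arrays while Spc24, its direct partner, was below 0 on all 4, and neither passed the threshold. Whether the ratios of these 2 genes differ was not tested. Cenpa, the centromeric histone, had -0.02 ± 0.08, and Cenpf, a kinetochore protein of the outer plate, had a fitted ratio of 0.00 ± 0.08. Cenpe, the kinetochore motor, had 0.14 ± 0.10 with 0.41 on replicate 4.

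By the brightest probe, all 5 genes of the spindle motors and microtubule binding proteins had a fitted ratio below 0. The median log2 was -0.11 with a range from -0.18 to -0.06, and none passed the threshold. Within slide 2, Kif2c lay at 0.02. Kif11, the motor that pushes the spindle poles apart, had log2 ratios of -0.07, -0.40, 0.11 and -0.36 and a fitted ratio of -0.18 ± 0.08 (limma adjusted p = 0.258). Kif11 was low on both arrays with cDKO RNA in Cy3, and its dye effect had an unadjusted limma p of 0.0334. Hmmr, a spindle pole protein that binds Tpx2, had a fitted ratio of -0.17 ± 0.09, and Kif2c, a microtubule depolymerase, had -0.11 ± 0.09. Tpx2, which activates AURKA on the spindle, had small and even ratios of -0.14, -0.10, -0.05 and -0.15 by its brightest probe (fitted -0.11 ± 0.07). The other Tpx2 probe was less even, with 0.11, -0.20, 0.20 and -0.09 (fitted 0.00 ± 0.07). Nusap1, which bundles spindle microtubules, had a fitted ratio of -0.06 ± 0.07.

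The 5 genes of the central spindle and cytokinesis had a median log2 ratio of -0.01, and 2 lay above 0. Kif20a, the kinesin that carries the chromosomal passenger complex to the midzone, had log2 ratios of -0.30, -0.34, -0.16 and -0.04. It was below 0 on all 4 arrays, opposite to Aurkb, Incenp and Cdca8, with a fitted ratio of -0.21 ± 0.08 and an limma adjusted p of 0.237. The brightest probes of the remaining genes lay closer to 0. Kif23, a centralspindlin motor, had 0.08 ± 0.08 (its other probe had -0.13 ± 0.08). Anln, an actin binding protein of the cleavage furrow, had 0.02 ± 0.08. Ect2, an exchange factor that acts there, had -0.01 ± 0.08 (its other probe had 0.12 ± 0.08). Prc1, which bundles antiparallel microtubules at the midzone, had -0.05 ± 0.08.

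In the 6 genes of condensin, topoisomerase and the chromosome surface, 5 lay above 0, with a median log2 ratio of 0.13, although Smc2 and Smc4 did not within slide 1 (-0.06 and -0.09). Mki67, whose protein Ki-67 coats mitotic chromosomes and is the usual proliferation marker, had log2 ratios of 0.04, 0.45, 0.00 and 0.48 on replicates 1 to 4. Its log2 levels were 15.27, 15.52, 15.20 and 15.54 in cDKO ureters, against 15.23, 15.07, 15.19 and 15.06 in control ureters. By this brightest probe, Mki67 was clearly higher in the cDKO channel on the 2 arrays with cDKO RNA in Cy3. It was at or near 0 on the 2 arrays with cDKO RNA in Cy5. The other Mki67 probe had 0.04, 0.11, 0.11 and 0.44 (fitted 0.17 ± 0.08), high on replicate 4 only. The fitted ratio of the brightest probe was 0.24 ± 0.07 (SE, n = 4 arrays, limma adjusted p = 0.152). Its dye effect had an unadjusted limma p of 0.0189. Kif11 and Mki67 were the 2 of 47 genes with such a dye p under 0.05 (4.26%, against 8.80% of all genes), and no gene had an adjusted dye p under 0.05.

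The condensin subunits differed in evenness. Ncapd2 had 0.11, 0.55, 0.05 and 0.22 (fitted 0.23 ± 0.08, limma adjusted p = 0.21), and Ncaph had 0.04, 0.37, -0.04 and 0.25 (fitted 0.16 ± 0.07). The core ATPases Smc2 and Smc4 had fitted ratios of 0.11 ± 0.10 and 0.07 ± 0.10, with both genes below 0 on both arrays of slide 1 and above 0 on both arrays of slide 2. Top2a, the topoisomerase that untangles sister DNA, had -0.24, -0.17, 0.00 and 0.19, with a fitted ratio of -0.05 ± 0.09.

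**Figure D3:**
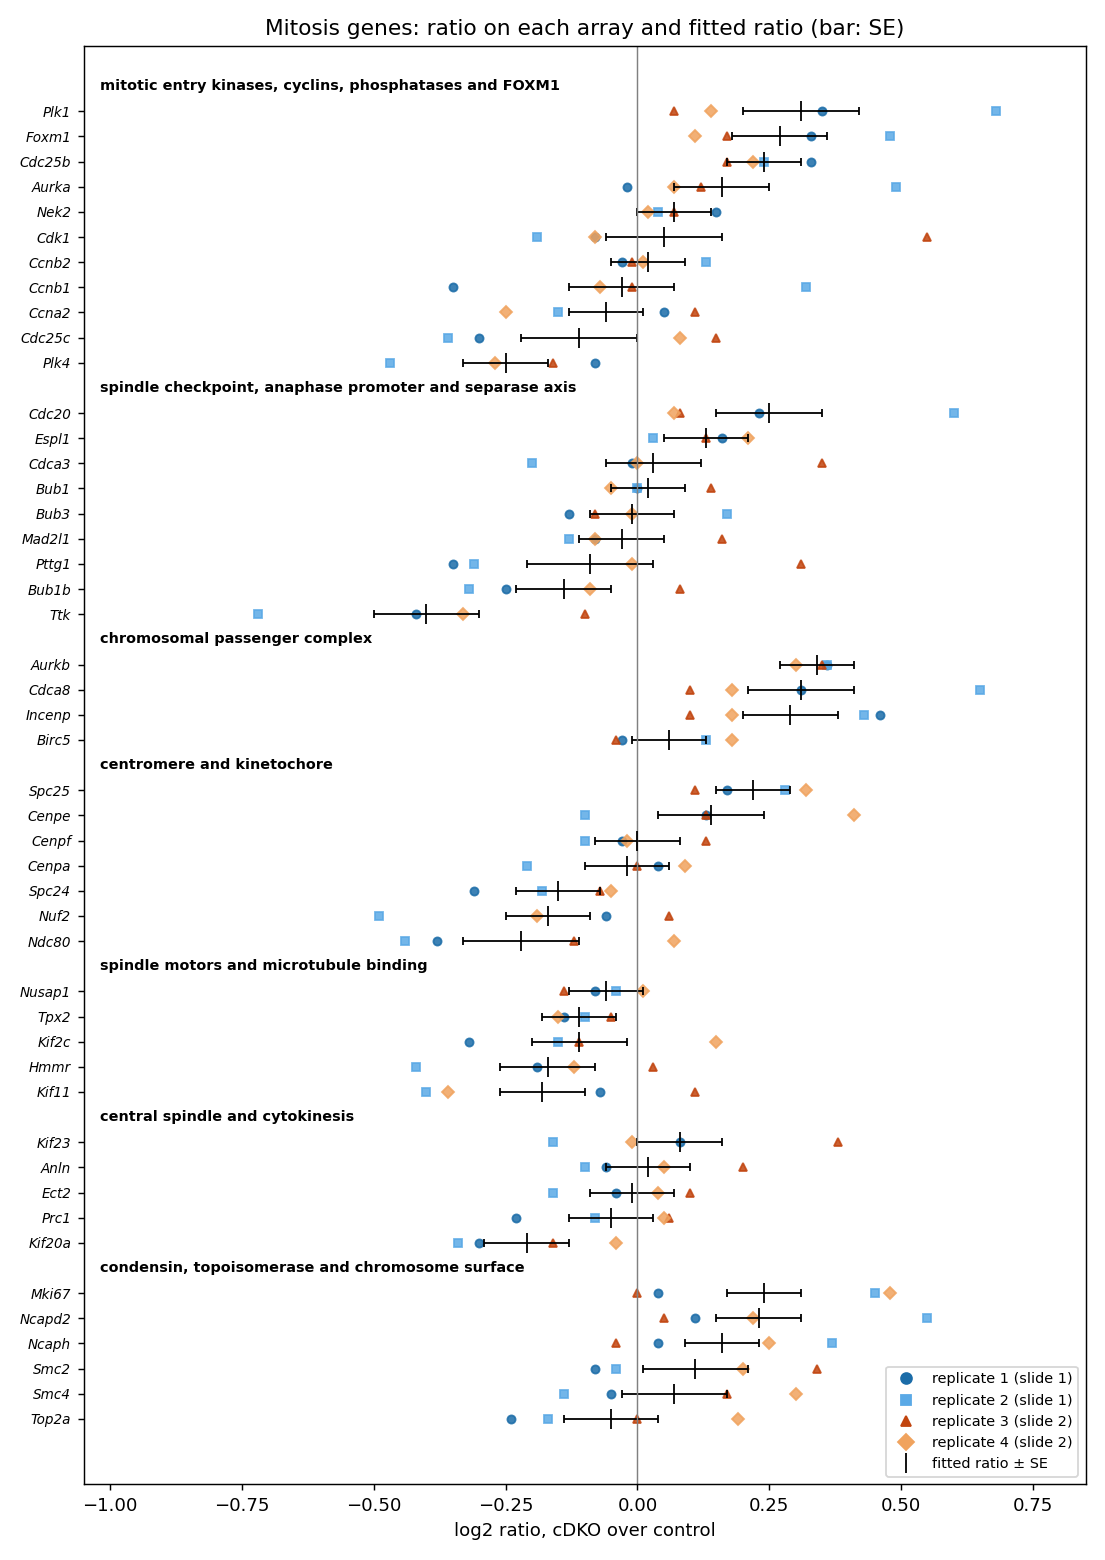
Log2 ratio of cDKO over control for the 47 mitosis genes, grouped by role and sorted by fitted ratio; coloured points are the 4 arrays and the black bar is the fitted ratio with its SE. The fitted ratios span -0.40 (Ttk) to 0.34 (Aurkb). The 4 chromosomal passenger genes lie above 0 (Birc5 at -0.05 with median centring, its other probes at -0.13 and -0.10). The 5 spindle motor genes lie below 0 (Kif2c at 0.02 within slide 2, the other Tpx2 probe at 0.00).

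The cDKO effect was compared between the slides. Of the 47 genes, 7 had a slide difference at an unadjusted limma p under 0.05 (14.9%, against 14.3% of all genes), and none at an adjusted p under 0.05, where 0.893% of all genes were called. Pttg1 had a mean log2 ratio of -0.33 on slide 1 and 0.15 on slide 2, with a difference of -0.48 (adjusted p = 0.229). Cdc25c had -0.33 on slide 1 and 0.12 on slide 2 (adjusted p = 0.221), and Plk1 had 0.52 on slide 1 and 0.10 on slide 2 (adjusted p = 0.26). Ttk, Ndc80 and Cdca8 also had the larger size of ratio on slide 1. Smc2 went the other way, with -0.06 on slide 1 and 0.27 on slide 2. Of the 47 genes, 18 were higher on slide 1 than on slide 2.

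With slide as a further term beside dye, which leaves 1 residual degree of freedom, 6 of the 47 genes were called (12.8%, against 12.5% of all genes). The 5 that rose in that fit (10.6%, against 8.01%) were Aurkb (limma adjusted p = 0.0174), Cdca8 (adjusted p = 0.0295), Plk1 (adjusted p = 0.0297), Incenp (adjusted p = 0.0322) and Foxm1 (adjusted p = 0.0433). The 1 that fell (2.13%, against 4.47%) was Ttk (limma adjusted p = 0.0102). The share called among the 47 genes was thus close to that of all genes. Within slide 1 alone none of the 47 was called, against 2.85% of all genes. Within slide 2 alone no gene of the whole table was called, so the 0 there says nothing about the 47.

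**Figure D4:**
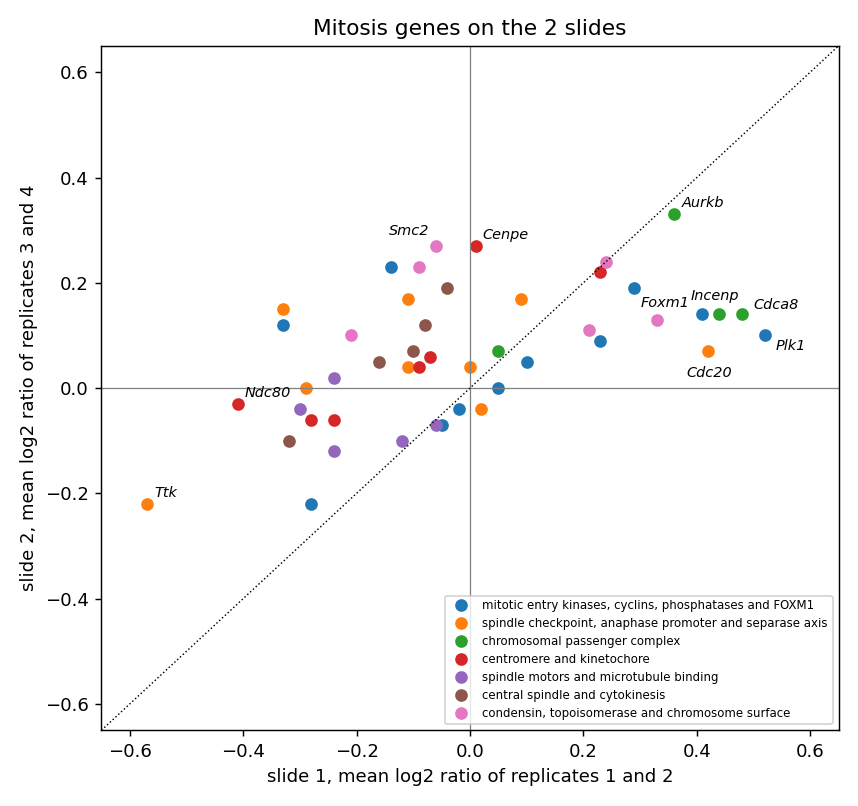
Mean log2 ratio of cDKO over control on slide 1 (replicates 1 and 2, horizontal) against slide 2 (replicates 3 and 4, vertical) for the 47 mitosis genes, coloured by role; the dotted line marks equal ratios. Aurkb is near the line at 0.36 and 0.33, while Plk1 (0.52 and 0.10), Cdca8 (0.48 and 0.14) and Ttk (-0.57 and -0.22) have larger ratios on slide 1.

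Across the 47 genes the ratios of replicates 1 and 2 correlated with r = 0.704, against 0.507 over all genes, and those of replicates 2 and 4 with r = 0.592, against 0.343. Replicate 3 had r = 0.325, 0.0941 and 0.149 with replicates 1, 2 and 4, against 0.41, 0.00559 and 0.112 over all genes. The ratios of replicate 3 went with the base composition of the probes. Across the 47 genes, r between the log2 ratio and probe G+C was -0.655 on replicate 3, against -0.269 over all genes, and 0.000324, -0.0154 and -0.0267 on replicates 1, 2 and 4, against -0.154, -0.000579 and -0.156 over all genes. The points of each correlation share 1 array, and they are given as a description. The G+C content of the 47 probes ran from 18.3% to 48.3%, with a median of 41.7% as over all genes. The highest ratios of replicate 3 belonged to Cdk1 (0.55, probe G+C 18.3%), Kif23 (0.38, 36.7%), Cdca3 (0.35, 26.7%) and Aurkb (0.35, 20%). With the G+C correction the fitted ratio of Cdk1 was -0.16, that of Cdca3 -0.10 and that of Smc2 -0.04, all on the other side of 0, while Cdca8 (0.34), Plk1 (0.33) and Incenp (0.28) stayed above it.

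**Figure D5:**
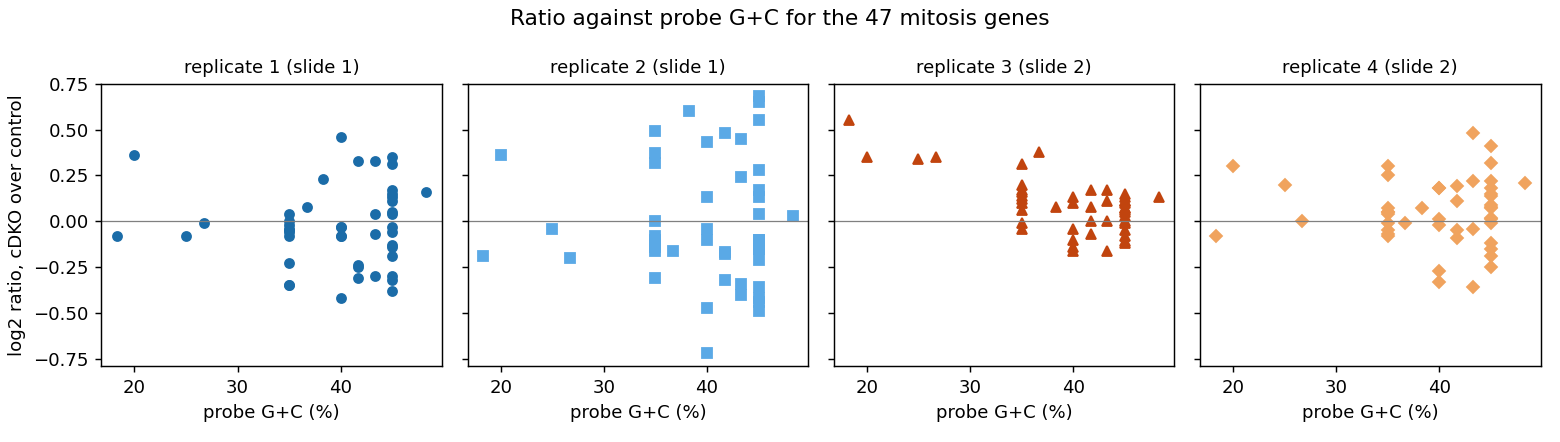
Log2 ratio of cDKO over control against probe G+C content (%) for the 47 mitosis genes, 1 panel per array. On replicate 3 the probes of low G+C content lie highest, with Cdk1 at 0.55, and on the other 3 arrays r across the 47 genes lies between -0.0267 and 0.000324, while over all genes it is -0.154 on replicate 1 and -0.156 on replicate 4.

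Several genes were measured by more than 1 probe, which gives a check within the gene. Of the 14 genes with several probes, 9 had all of them on the same side of 0. For Incenp the 2 probes, which overlap by most of their length at chr19:9946878-9946952 of mm9, had fitted ratios of 0.37 ± 0.08 and 0.29 ± 0.09, and for Cdca8 the 2 probes had 0.31 ± 0.10 and 0.23 ± 0.08. For Nuf2 the probes disagreed in size: the brightest, which represents the gene above, had -0.17 ± 0.08, and the others had -0.63 ± 0.17 and -0.35 ± 0.17. The probe at -0.63 had log2 ratios of -1.0, -1.04, -0.06 and -0.41, low on both arrays of slide 1. For Mad2l1 the brightest probe had -0.03 ± 0.08 and the others -0.20 ± 0.07 and -0.19 ± 0.08. For Cdk1 the 2 overlapping probes of 18.3% G+C had 0.55 and 0.84 on replicate 3, and the third probe, of 45% G+C, had 0.13 there.

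The effect was also compared between the sex labels. The median log2 ratio of the 47 genes was -0.01 on the arrays labelled female and 0.04 on those labelled male. No gene of the 47 had a sex difference at an unadjusted limma p under 0.05 (0 of 47, lowest adjusted p = 1), where 1.07% of all genes did and no gene passed adjustment. That fit leaves 1 residual degree of freedom. Sex has the same pattern over the 4 arrays as a dye effect that differs between the slides, so these cannot be told apart.

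Other cell cycle genes were read from the same fit, with lists drawn up when earlier results of these data were known. Of 63 further mitosis genes none was called, and their median log2 ratio was 0.02. The smallest p-values were those of Arhgap11a (0.38 ± 0.08, limma adjusted p = 0.0863), and Lmnb1, which encodes lamin B1 (0.54 ± 0.12, limma adjusted p = 0.0999). The ratios of Lmnb1 were uneven, at 0.20, 0.70, -0.10 and 1.35 on replicates 1 to 4, and highest on the arrays with cDKO RNA in Cy3. Of 25 cohesin and anaphase promoting complex genes none was called, with a median of 0.02; Anapc5, a subunit of that complex, had 0.21 ± 0.08, and Rad21, a cohesin subunit, had 0.23 ± 0.10. Of 36 genes of DNA replication and S phase 35 were tested, none was called, and their median was 0.09. Mcm3, a subunit of the replicative helicase, had 0.31 ± 0.08 (limma adjusted p = 0.129), and Rrm2, a subunit of ribonucleotide reductase, had 0.24 ± 0.07 (limma adjusted p = 0.16). Of 23 genes of early cell cycle cyclins and cell cycle inhibitors 22 were tested and none was called, with a median of 0.06. In that list Mycn, a growth-promoting transcription factor, had 0.40 ± 0.10 (limma adjusted p = 0.109) and Cdkn1a, the inhibitor p21, had 0.47 ± 0.13 (limma adjusted p = 0.142). At an unadjusted limma p under 0.05, the 4 lists held 9 of 63, 1 of 25, 8 of 35 and 5 of 22 genes tested, against 19.6% of all genes.

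The makeup of the samples was read from marker genes. All 16 urothelium markers and 13 of 14 markers of ureteric mesenchyme and smooth muscle passed the background test in every channel of every array. Of the urothelium markers 6 of 16 had ratios above 0, with a median log2 ratio of -0.03 and a range from -1.43 to 0.53. Upk1b, a uroplakin gene, fell by 1.43 ± 0.20 on the log2 scale (limma adjusted p = 0.0401), while the brightest genes, the keratins Krt18 and Krt8, had 0.13 ± 0.08 and -0.02 ± 0.10. The other uroplakins and Krt19, named after their values were seen, had -0.91 (Upk3a), -0.59 (Upk2), -0.59 (Upk1a) and -0.55 (Krt19) and were not called. These low values do not stand for the whole list, in which 6 of 16 ratios lay above 0 and the highest was 0.53. Of the mesenchyme and smooth muscle markers 13 of 14 had ratios above 0, with a median of 0.27. Ptch1, a Hedgehog receptor, rose by 0.55 ± 0.08 (limma adjusted p = 0.0401), and the brightest genes were Tbx3 (0.42 ± 0.09), a transcription factor gene, and Bmp4 (0.25 ± 0.08), a signalling ligand. The log2 of the summed level ran from 17.76 to 18.19 in cDKO channels against 17.87 to 18.06 in control channels for the urothelium list, and from 17.11 to 17.58 against 16.73 to 17.39 for the mesenchyme list. Markers of blood cells and vessels were above background too. Ratios above 0 were found for 2 of 11 erythroid, 1 of 12 macrophage and 2 of 10 endothelial markers, and the medians of these lists were -0.28, -0.30 and -0.29. The log2 of the summed level ran from 18.33 to 18.83 in cDKO channels against 18.75 to 19.04 in control channels for the erythroid list. It ran from 14.14 to 14.45 against 14.52 to 14.78 for the macrophage list, and from 14.74 to 15.05 against 14.87 to 15.41 for the endothelial list. For the 47 mitosis genes it ran from 19.32 to 19.40 in cDKO channels and from 19.24 to 19.36 in control channels, so the groups overlapped. Of these lists Hbb-bh1 (fell by 0.54 ± 0.07), Hba-x (fell by 0.66 ± 0.09), Fcer1g (fell by 0.52 ± 0.08) and Emcn (fell by 0.58 ± 0.07) were called (limma adjusted p = 0.0385, 0.0425, 0.049 and 0.0363). The bright genes of the blood and vessel lists were Hba-a1 (-0.27 ± 0.08) and Hbb-y (-0.33 ± 0.07), both globins, Csf1r (-0.24 ± 0.07) and Cx3cr1 (-0.11 ± 0.07), both macrophage receptors, and Kdr (-0.23 ± 0.11) and Cldn5 (-0.31 ± 0.10), both endothelial. The medians of the kidney, neural and gonad lists were 0.15, -0.02 and 0.11. The part of any of these cell types in the ratios of the mitosis genes was not tested.

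The genotype was read from Fgfr1, Fgfr2 and Tbx18. Fgfr1 had log2 ratios of -0.35, -0.09, -0.59 and -0.55 on replicates 1 to 4 and a fitted ratio of -0.40 ± 0.10 (limma adjusted p = 0.117). Fgfr2 rose in cDKO ureters by 0.59 ± 0.07 on the log2 scale (limma adjusted p = 0.0356), and Tbx18 had 0.26 ± 0.08 (limma adjusted p = 0.164). Which exons are floxed is not stated in the labels, so these values check neither deletion.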

How the data were processed

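Total RNA (150 ng per sample, peqGOLD RNAPure) was amplified and labelled with a low-input 2-colour kit, per the labels' protocols. Per the file headers, Agilent Feature Extraction 10.7.3.1 read the scans, with probe positions on mm9. The deposited scanner files give each spot's mean intensity and local background intensity, not normalized, and log10 ratios of red over green made by the scanner software, per the file headers. The authors' deposited table holds another quantity per probe, a score that behaves as a signed fold with a median of 1 per array. Its log2 value correlated with the scanner log ratio at 0.838 to 0.863, and its centring is unknown here.

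Background was removed from the mean intensity by normexp (offset 50), and loess (span 0.3) normalized the log2 ratios of each array, with control and outlier spots at weight 0. Spots were averaged by probe. The filter kept 25591 of 39429 probes, those with 3 or more of 4 spots well above background in the same channel of all 4 arrays. The brightest kept probe stood for a gene. Ratios are cDKO over control, signed by the dye labels. They were fitted with limma 3.58.1 in R 4.3.3 with a dye term, two-sided, with Benjamini-Hochberg adjustment over all 19365 genes, on 2 residual degrees of freedom beside a prior of 4.53. Errors are the SE of the limma fit on n = 4 arrays, in which each gene's variance is drawn toward the variance shared across all genes. The offset draws ratios of dim probes toward 0. Levels are log2 values per channel after quantile scaling, and levels of different probes were not compared, other than to say how bright a probe was. The number of arrays limits the precision. The fit was also run on simulated data without slide or probe G+C effects, so that run does not bear on those.

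The genes and lists were chosen with earlier results of these data known. All 47 genes may be named. Of each other list the called genes are named, or, if there were none, the 2 of smallest p, and of a marker list the 2 brightest. The kidney, neural and gonad lists are given by their medians. The alternatives were no dye term, a slide or sex term, each slide alone, other background and scaling settings, the scanner and deposited values, other filters, the mean of a gene's probes, leaving out each replicate, and a probe G+C correction chosen after seeing the data.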

Additional observations from a re-analysis of the deposited data

Results flagged for a closer look

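Of 55 sets of 4 ratios examined, 2 held an array far from the other 3, by a test that flags about 1 in 20 groups by chance. For Cdk1 the log2 ratio was 0.55 on replicate 3, against -0.08, -0.19 and -0.08 on the other arrays. Its gap to the nearest array took 0.848 of the whole range. The Cdk1 probe has a G+C content of 18.3%, and the ratios of replicate 3 went with G+C content across the 47 genes (r = -0.655). For Aurkb the log2 ratio was 0.30 on replicate 4, against 0.36, 0.36 and 0.35, with a gap of 0.830 of a narrow range.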

How the results depend on the processing

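The 18 alternatives gave 846 values for the 47 genes. Of these, 777 kept their direction and their side of the threshold, 61 changed sign without being called in either setting, 8 became called, and no called value turned. A single sign in every alternative run was kept by 27 of the 47 genes. The median of the 47 genes ran from -0.06 to 0.07. No gene of the 47 was called, except 6 with the slide term, 1 with the scanner log ratio and 1 with the deposited table, and 0 when any replicate was left out. Of all genes, 165 were called in the fit reported, 258 with no dye term, 2418 with the slide term, 551 within slide 1, 0 within slide 2 (1346 at an unadjusted limma p under 0.05), 2 with the sex term, 263 at offset 16, 255 with median centring, 1 with no filter, 98 with the G+C correction, 214 with the scanner log ratio, 214 with the deposited table, and between 34 and 403 without 1 replicate. These counts were 34, 56, 266 and 403 without replicates 1, 2, 3 and 4. The cause of these differences was not tested. With no filter 29875 genes were tested, and each slide alone has 2 arrays. At an unadjusted limma p under 0.05, median centring left 1 of the 47 genes and 1288 of all genes (6.65%), against 12 and 3789 (19.6%) in the fit reported. No separate paired analysis was run, because each array is itself a pair of cDKO and control RNA and the fit of its ratio is already paired. Limits are 4 arrays, extracts of unnamed origin, whole ureters, and slide, scan and scanner that move together. With 2 residual degrees of freedom, a missed threshold does not show equal levels. Dim probes such as that of Aurkb depend on the background setting, with a ratio of 0.43 at offset 16 and 0.38 with no background correction.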
